A study of Mus musculus with 18 samples.

Results

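Splenic natural killer (NK) cells of Runx3 knockout mice were compared between the CD27+CD11b+ double-positive stage (DP) and the less mature CD27+CD11b- stage (CD27). The comparison uses 6 of the 18 arrays of the study, 3 of KO DP cells and 3 of KO CD27 cells, which were chosen by their titles and paired by replicate number. All 35399 probe sets of the array were tested.

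All mice were of the ICR strain and 6 weeks old, of the Runx3 -/- genotype (KO) or the Runx3 +/+ genotype (WT), and their sex is labelled only as male or female. Every mouse, WT mice included, had received 2 injections, 2 days apart, of interleukin-15 complexed with its receptor alpha chain (IL15/Ra). NK cells were enriched from spleen by negative selection, and NKp46+ cells were sorted by flow cytometry into KO DP, KO CD27, KO CD11b (CD27-CD11b+), WT DP, WT CD27 and WT CD11b cells, with 3 arrays in each of the 6 groups. The labels do not say whether Runx3 was deleted in all cells or in some, whether animals were pooled, or whether arrays with the same number came from the same mouse. P-values therefore measure the spread between these samples, which may be technical in part.

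NK cells are innate lymphocytes that kill infected and transformed cells with perforin and granzymes. In the mouse they mature from CD27+CD11b- cells through CD27+CD11b+ cells to CD27-CD11b+ cells, and on the way lose receptors and cytokines of the early stage and gain effector and homing molecules. Runx3 is a Runt family transcription factor that binds DNA with the partner protein Cbfb, and interleukin-15 is the cytokine on which NK cell survival and expansion depend.

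Values are log2 expression values from Mouse Gene 1.0 ST arrays, made by the authors with robust multi-array averaging (RMA). A difference of 1 on this scale is a fold of 2. The 6 arrays correlated with one another at Pearson's r of 0.975 to 0.994 over all probe sets, and the median SD within the 6 groups of 3 arrays was 0.14. Outside the 6, the KO CD11b array of replicate 3 stood apart: neutrophil markers summed to 14.26 there (log2 of the sum), against 9.24 to 9.85 on the other 17 arrays, and dendritic cell and MHC class II markers to 14.21, against 11.22 to 11.90. It enters the fit through the block and the spread but does not alter the differences between KO DP and KO CD27 cells, and counts are given without it as well, a choice made after seeing the data. Precision is limited by the 3 arrays in a group, and the table used here holds no detection call, so it is not known whether a low value lies above background. A gene is said to have passed, risen or fallen where limma's adjusted p was under 0.05, with p-values adjusted over all probe sets and the KO replicate number as a block. An exact permutation test cannot pass here, since its smallest two-sided p is 0.25 for 3 pairs and 0.1 for 3 arrays against 3.

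Itgam, which encodes CD11b, read 11.83, 11.98 and 11.59 on KO DP arrays of replicates 1, 2 and 3, against 9.35, 9.40 and 9.74 on KO CD27 arrays. It was the largest rise that passed, 4.93-fold (95% interval 3.25 to 7.49, adjusted p = 0.00949), but CD11b protein was the gate that separated the cells, so the rise checks the sort and is no finding. Cd27, whose protein both gates required, averaged 11.52 ± 0.44 in KO DP cells and 11.63 ± 0.27 in KO CD27 cells (SD, n = 3 each), a difference of -0.10 (adjusted p = 0.923). Ncr1, which encodes NKp46, read 13.55 to 13.70 on KO DP arrays and 13.47 to 13.67 on KO CD27 arrays. The targeted gene Runx3 read 10.89, 10.90 and 10.75 on KO DP arrays, against 10.94, 11.14 and 10.73 on KO CD27 arrays, a difference of -0.09 (adjusted p = 0.857). Where its probes lie relative to the deleted part is not given in the sources used here, so this level does not check the genotype.

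KO DP cells had less mRNA of several secreted and membrane proteins than KO CD27 cells. The chemokine Xcl1, the interleukin-2 receptor chain Il2ra, the growth factor Bmp7 and the membrane proteins Tmem176a and Cd200r1 fell 2.80-fold or more. Among the smaller number of rises were Itgam, the imprinted gene Mest, the nuclear receptor Nr4a2, the mitotic kinase Aurkb and the transcription factor Irf8. In all 31 probe sets passed (0.0876% of those tested), 11 higher (0.0311%) and 20 lower (0.0565%) in KO DP cells, and 3029 (8.56%) had an unadjusted p under 0.05. Of the 31, 23 carry 1 gene symbol, 9 of them higher and 14 lower, while 5 are not listed in the annotation. The other 3, all lower, match the same set of several genes, so they are not 3 separate genes. These calls rest on all 3 pairs. Without KO replicate 1 none passed (2392 had an unadjusted p under 0.05 by limma), without KO replicate 2 there were 4 calls, all 4 among the 31, and without KO replicate 3 there were 7 calls, 3 of them among the 31. WT arrays enter through the shared estimate of the spread, and the count was 11 without WT replicate 2 and 55 without WT replicate 3. Without the KO CD11b array of replicate 3 it was 47 (21 higher and 26 lower), all 31 included. It was 7 without the block.

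Xcl1, a chemokine that attracts dendritic cells bearing the receptor XCR1, showed the largest fall that passed. It read 9.05, 8.58 and 8.43 on KO DP arrays, against 10.71, 10.32 and 10.71 on KO CD27 arrays. The groups did not overlap, and the gene fell 3.71-fold (95% interval 2.81 to 4.90, adjusted p = 0.0063). Tnfrsf25, the death receptor DR3 of the tumour necrosis factor receptor family, read 7.51, 7.59 and 7.26 on KO DP arrays, against 8.42, 8.66 and 8.46 on KO CD27 arrays. It fell 2.09-fold (1.73 to 2.52, adjusted p = 0.00949), with no overlap between the groups.

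Xcl1 and Tnfrsf25 were also the genes among those that passed whose promoter holds the Runt factor core TGTGGT on either strand, and their promoters are printed for that reason. The window runs from 250 bases before to 50 bases after the start site in the RefSeq table of build GRCm38.p6, which lists 15 of the 23 genes. Xcl1 lies on the minus strand at chr1:164935473-164935772, with the core at bases -227 to -222 from the start site. Tnfrsf25 lies on the plus strand at chr4:152115684-152115983, with the core at bases -92 to -87. Both matches are on the strand opposite to the gene, so the capitals read ACCACA.
Xcl1: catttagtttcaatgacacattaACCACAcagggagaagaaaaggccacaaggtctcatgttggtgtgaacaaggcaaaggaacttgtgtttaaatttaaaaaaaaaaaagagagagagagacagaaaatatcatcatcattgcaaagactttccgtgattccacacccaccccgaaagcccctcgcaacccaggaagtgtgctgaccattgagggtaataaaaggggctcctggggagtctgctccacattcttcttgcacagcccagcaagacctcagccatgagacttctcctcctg
Tnfrsf25: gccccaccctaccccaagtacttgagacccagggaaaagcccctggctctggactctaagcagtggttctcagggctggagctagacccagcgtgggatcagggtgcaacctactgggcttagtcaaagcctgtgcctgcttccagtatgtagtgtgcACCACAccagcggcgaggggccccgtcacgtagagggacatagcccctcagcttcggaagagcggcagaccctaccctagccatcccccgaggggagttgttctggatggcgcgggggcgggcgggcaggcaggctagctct
The core was thus present in 2 of 15 promoters (13.3%), against 4573 of the 27025 in the table (16.9%). A match is a description of the letters and not evidence of binding.

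Both interleukin-2 and its receptor chain fell. Il2ra, which encodes the alpha chain CD25 of the high-affinity receptor, read 7.59, 6.89 and 7.25 on KO DP arrays, against 9.09, 8.20 and 9.91 on KO CD27 arrays. It fell 3.53-fold (95% interval 2.39 to 5.22, adjusted p = 0.0244), most in the pair of replicate 3, where the difference was -2.66 against -1.50 and -1.30 in replicates 1 and 2. Il2 itself read 5.31, 5.51 and 5.11 on KO DP arrays, against 6.09, 5.93 and 5.61 on KO CD27 arrays, and fell 1.48-fold (1.30 to 1.69, adjusted p = 0.0361). These Il2 values lay below the array medians of 6.27 to 6.34. The Il2 call passed under 6 of 18 alternatives, and that of Il2ra under 10 of 19. Of 29 cytokine receptor genes Il2ra alone fell, 0 rose and the median difference was -0.07. Over the 19938 genes, each taken by 1 probe set, 9 rose (0.0451%), 14 fell (0.0702%) and the median was 0.03. Of 21 cytokine and chemokine genes Xcl1 and Il2 fell, 0 rose and the median was -0.06.

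**Figure D1:**
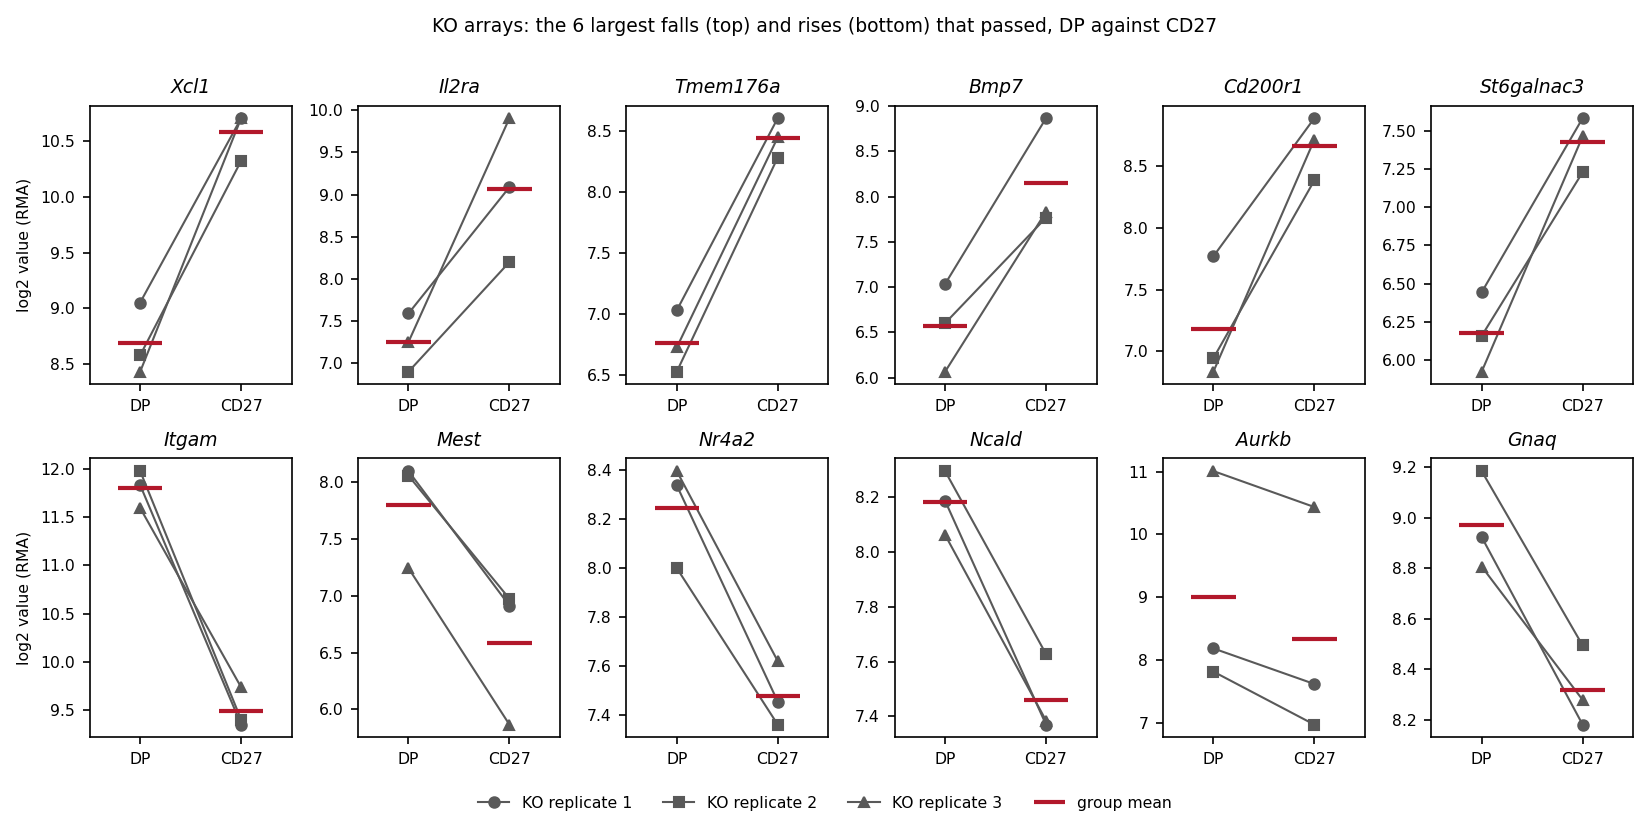
Log2 values of the 6 largest falls (top row) and 6 largest rises (bottom row) that passed, with KO DP arrays on the left and KO CD27 arrays on the right of each panel; points are arrays, thin lines join arrays of the same replicate number and red bars are group means. In each of the 12 panels the 3 lines run the same way, and for Aurkb the arrays of replicate 3 (11.01 in KO DP, 10.44 in KO CD27) stand far above the others.

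Bmp7, a secreted ligand of the bone morphogenetic protein family, read 7.03, 6.60 and 6.07 on KO DP arrays, against 8.87, 7.77 and 7.83 on KO CD27 arrays. It fell 3.00-fold (95% interval 2.20 to 4.10, adjusted p = 0.0155). The groups did not overlap. The sialyltransferase St6galnac3 read 6.44, 6.16 and 5.92 on KO DP arrays, against 7.58, 7.23 and 7.47 on KO CD27 arrays, and fell 2.38-fold (1.95 to 2.91, adjusted p = 0.0063). The creatine kinase gene Ckb fell 1.85-fold (1.55 to 2.21, adjusted p = 0.0162) and was almost level on the KO DP arrays, at 5.60, 5.55 and 5.51, against 6.86, 6.37 and 6.08 on KO CD27 arrays. The cyclic nucleotide phosphodiesterase Pde11a and the Wnt co-receptor Lrp5 had differences of -0.71 (adjusted p = 0.0251) and -0.69 (adjusted p = 0.0369). The KO DP values of Ckb and Pde11a lay below the medians of those arrays, 6.27 to 6.31. Whether such values lie above background is not known. The small nucleolar RNAs Snora69 and Snord35b had differences of -0.88 and -0.65 (adjusted p = 0.00949 each).

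Cd81, a tetraspanin of lymphocyte membranes, fell by a similar amount in each pair although the pairs differed in level. It read 8.94, 8.52 and 9.61 on KO DP arrays, against 9.55, 9.10 and 10.22 on KO CD27 arrays. The pair differences were -0.61, -0.57 and -0.61, and the fall was 1.51-fold (95% interval 1.32 to 1.73, adjusted p = 0.0311). The unpaired groups overlapped, since the KO DP array of replicate 3 read above the KO CD27 arrays of replicates 1 and 2. This call passed under 6 of 19 alternatives, and Xcl1 under 15 of 19.

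Among the rises, Mest, an imprinted gene that encodes a hydrolase-like protein, had the largest fold after Itgam. It read 8.10, 8.06 and 7.24 on KO DP arrays, against 6.91, 6.97 and 5.86 on KO CD27 arrays, and rose 2.32-fold (95% interval 1.82 to 2.96, adjusted p = 0.0162). Replicate 3 was lowest at both stages. Nr4a2, an orphan nuclear receptor induced early after lymphocyte stimulation, averaged 8.24 ± 0.21 in KO DP cells and 7.48 ± 0.13 in KO CD27 cells (SD, n = 3 each), with pair differences of 0.88, 0.64 and 0.77, and rose 1.70-fold (1.45 to 1.99, limma adjusted p = 0.0207). Irf8, a transcription factor needed for NK cell effector function, read 11.37, 11.71 and 11.49 on KO DP arrays, against 10.96, 11.22 and 10.78 on KO CD27 arrays. It rose 1.45-fold (1.29 to 1.64, adjusted p = 0.0277), and these groups did not overlap. The smaller rises were those of the calcium sensor Ncald (0.72), the G protein subunit Gnaq (0.65), the potassium channel Kcnk5 (0.60) and the nuclease-like Endod1 (0.45), at adjusted p-values of 0.0311 to 0.0331.

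Several of the largest differences did not pass (in the brackets below, the difference is followed by its adjusted p). Il7r, the interleukin-7 receptor chain, read 9.64, 10.04 and 9.36 on KO DP arrays, against 11.66, 11.88 and 11.81 on KO CD27 arrays. Its difference of -2.10 was larger than that of Xcl1, and the groups did not overlap, but its adjusted p was 0.138. The chemokine receptor Cxcr6 (-1.69, adjusted p = 0.107), the phospholipid flippase gene Atp8a2 (-2.07, 0.123), Tmem176b (-1.52, 0.123) and Rflnb (-1.30, 0.0693) were lower in all 3 pairs. Ifitm3 (-1.37, 0.296), the adhesion protein Emb (-1.33, 0.595), the oxysterol receptor Gpr183 (-1.26, 0.202) and lymphotoxin beta, Ltb (-1.22, 0.123), were as well. Car1, carbonic anhydrase of red cells, had a difference of -1.62 (0.529) that came mainly from 1 array: the KO CD27 array of replicate 3 read 11.67, against 5.40 and 5.72 on those of replicates 1 and 2.

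The largest positive differences that did not pass were smaller. Klrg1, the inhibitory receptor of mature NK cells, read 11.72, 12.85 and 12.23 on KO DP arrays, against 10.38, 12.21 and 10.99 on KO CD27 arrays, a difference of 1.07 (adjusted p = 0.136). The integrin chain Itgax, CD11c, read 12.20, 12.19 and 11.21 on KO DP arrays, against 11.56, 11.37 and 10.15 on KO CD27 arrays, a difference of 0.84 (adjusted p = 0.0781). The fractalkine receptor Cx3cr1 differed by 1.20 (0.586), the mast cell protease family member Cma1 by 0.89 (0.221), the chitinase Chit1 by 1.25 (0.495) and the mitochondrial topoisomerase Top1mt by 1.32 (0.465). As3mt (0.93, 0.116), Tppp3 (0.88, 0.162), Gpx8 (0.87, 0.221) and the neutrophil marker Ly6g (0.97, 0.627) completed the 10 largest in this direction that moved the same way in all 3 pairs.

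Mature NK genes leaned higher and immature NK genes lower in KO DP cells, but nearly all single members failed the test. Of 27 mature NK genes only Irf8 rose, 0 fell and the median difference was 0.22. Of these 23 were higher in all 3 pairs and 1, the activating receptor Cd226 (-0.76, adjusted p = 0.109), was lower in all 3. Over the 19938 genes, 4715 (23.6%) were higher and 2110 (10.6%) lower in all 3 pairs, with a median of 0.03. Of 30 immature NK genes Xcl1 alone fell, 0 rose, 23 were lower in all 3 pairs and 2 higher, with a median of -0.45. These pair counts describe the lists, whose members were chosen with results of these data known.

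Markers of type 1 innate lymphoid cells (ILC1), tissue-resident relatives of NK cells, shared 13 genes with the immature NK list. Of 23 such markers Tmem176a and Cd200r1 fell, 0 rose and the median was -0.71, with 19 lower in all 3 pairs and 1 higher. Of all genes 0.0702% fell and 0.0451% rose, and 10.6% were lower and 23.6% higher in all 3 pairs. Tmem176a, a protein of intracellular membranes, read 7.03, 6.52 and 6.72 on KO DP arrays, against 8.61, 8.28 and 8.45 on KO CD27 arrays, and fell 3.22-fold (95% interval 2.22 to 4.67, adjusted p = 0.0277). Cd200r1, the inhibitory receptor for CD200, read 7.77, 6.94 and 6.83 on KO DP arrays, against 8.89, 8.39 and 8.72 on KO CD27 arrays, and fell 2.80-fold (1.98 to 3.96, adjusted p = 0.0351). In bulk RNA, fewer cells of a type and less RNA per cell cannot be told apart.

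Markers of other lymphocytes and blood cells were read on the same arrays. Of 17 T cell markers 0 passed by limma, 14 were lower and 1 higher in all 3 pairs, and the median was -0.31. Of all genes 10.6% were lower and 23.6% higher in all 3 pairs. The immature NK list also holds 5 of the 17 T cell markers. Cd3e differed by -1.15 (adjusted p = 0.603) and Cd4 by -1.04 (0.300). Summed over the list, T cell markers read 13.01 to 13.49 (log2 of the sum) on KO DP arrays and 13.40 to 13.69 on KO CD27 arrays; the ranges overlap, and the sum was lower in KO DP in all 3 pairs, by 0.20 to 0.39. Neutrophil markers read 9.43 to 9.85 on KO DP arrays and 9.24 on each KO CD27 array, higher in all 3 pairs and without overlap, but 0 of 17 passed and the median was 0.06. Mast cell and basophil markers, which include the NK cell genes Itga2 and Cma1, read 13.12 to 13.17 on KO DP arrays and 12.86 to 12.99 on KO CD27 arrays, higher in all 3 pairs, with 0 of 19 called and a median of -0.04. B cell markers read 9.05 to 9.45 on KO DP arrays and 9.17 to 9.91 on KO CD27 arrays, lower in all 3 pairs, and erythroid and platelet markers 11.78 to 12.60 on KO DP arrays and 12.04 to 13.38 on KO CD27 arrays, lower in 2 of 3 pairs. Dendritic cell and MHC class II markers read 11.54 to 11.90 on KO DP arrays and 11.41 to 11.76 on KO CD27 arrays, higher in all 3 pairs, and macrophage markers 10.48 to 10.51 on KO DP arrays and 10.26 to 10.61 on KO CD27 arrays, higher in 2 of 3 pairs. Taken as unpaired groups these last 4 lists overlapped, and none of their members passed by limma. The macrophage list's highest members over the 6 arrays were Cd68 (8.10 to 9.05), Ctss (8.28 to 8.62), Apoe (6.38 to 8.26) and Lyz2 (4.67 to 5.97). The part of other cells in the differences above was not tested.

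**Figure D2:**
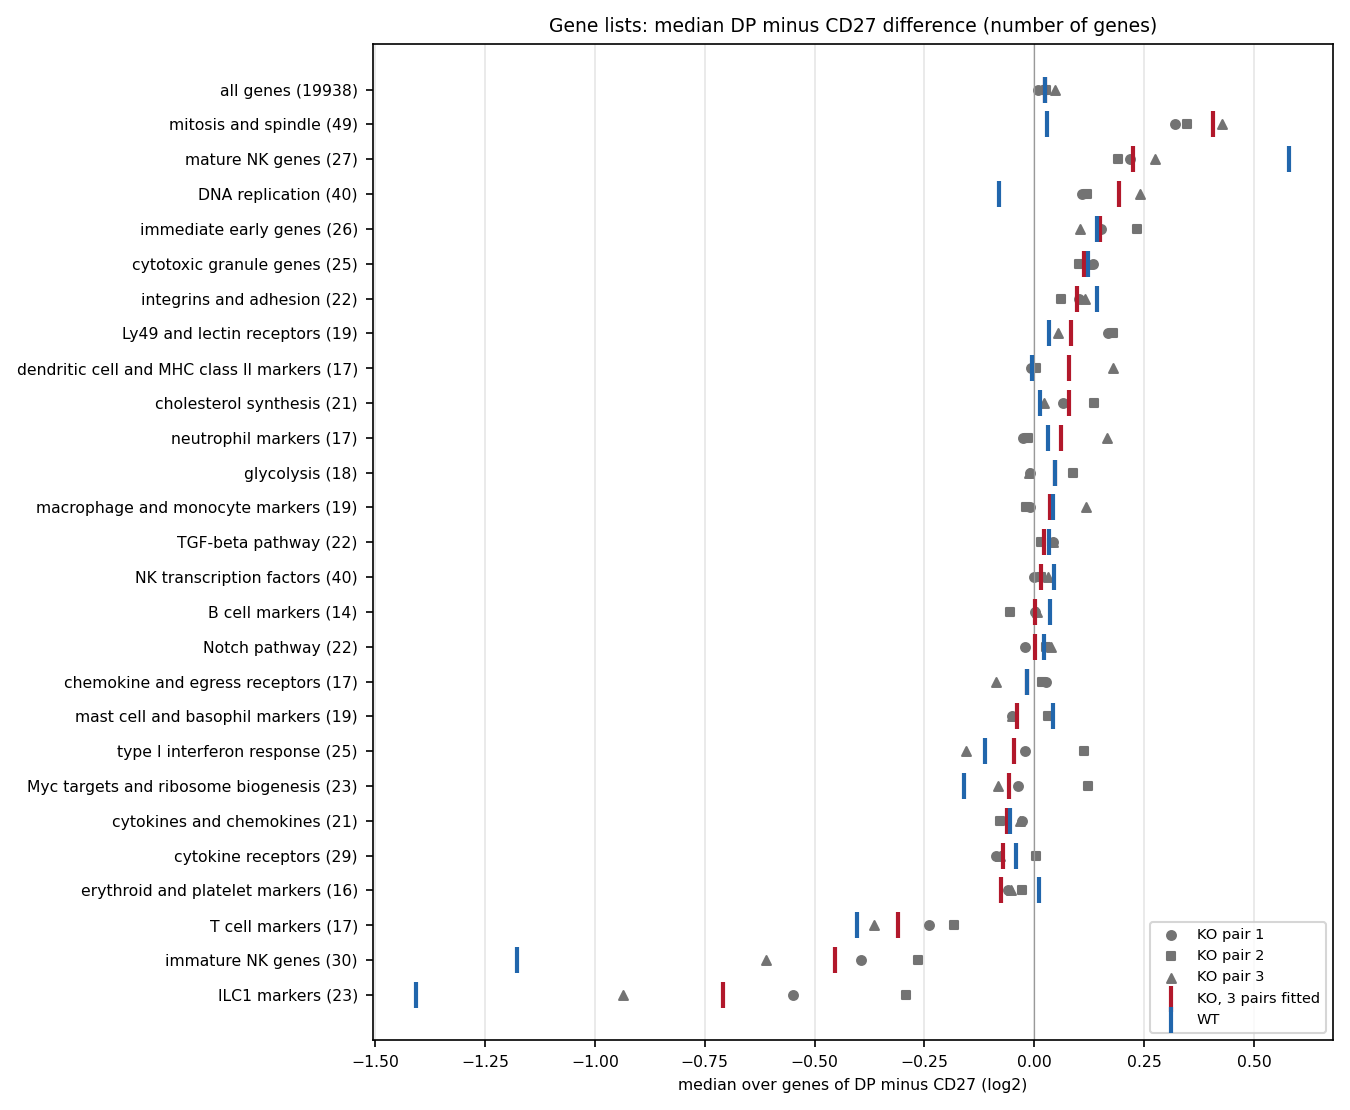
Median difference, DP minus CD27 in log2, over the measured genes of each list, with the number of genes in brackets; grey points are the 3 KO pairs, red bars the KO fit and blue bars WT. ILC1 markers (-0.71 in KO, -1.41 in WT) and immature NK genes (-0.45 in KO, -1.18 in WT) lie farthest to the left, and mitosis and spindle genes (0.41 in KO, 0.03 in WT) farthest to the right in KO.

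Genes of mitosis were higher together in KO DP cells, with 1 call. Aurkb, the kinase of the chromosomal passenger complex, read 8.19, 7.82 and 11.01 on KO DP arrays, against 7.62, 6.98 and 10.44 on KO CD27 arrays. It rose 1.58-fold (95% interval 1.38 to 1.80, adjusted p = 0.0163), with pair differences of 0.57, 0.84 and 0.57. The spread between pairs was larger than that step, since replicate 3 read far above replicates 1 and 2 at both stages. Of 49 mitosis and spindle genes Aurkb alone rose, 0 fell, 43 were higher in all 3 pairs (87.8%, against 23.6% of all genes) and 0 lower. Their median difference was 0.41, and 0.34 without KO replicate 3.

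The median level over the 49 genes was 7.51, 6.85 and 9.99 on KO DP arrays, against 7.09, 6.50 and 9.50 on KO CD27 arrays. Replicate 3 thus stood far above the other KO arrays at both stages. On the KO CD11b arrays the median level was 7.66, 7.48 and 9.62, and on the 9 WT arrays it lay between 5.95 and 6.33. Of 40 DNA replication genes 0 passed in either direction by limma, and the median was 0.19. In all 3 pairs 26 were higher (65%, against 23.6% of all genes) and 2 lower (5%, against 10.6%). The largest of these differences were those of the polymerase subunit Pole (0.45, adjusted p = 0.303) and the ribonucleotide reductase subunit Rrm2 (0.42, 0.481).

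**Figure D3:**
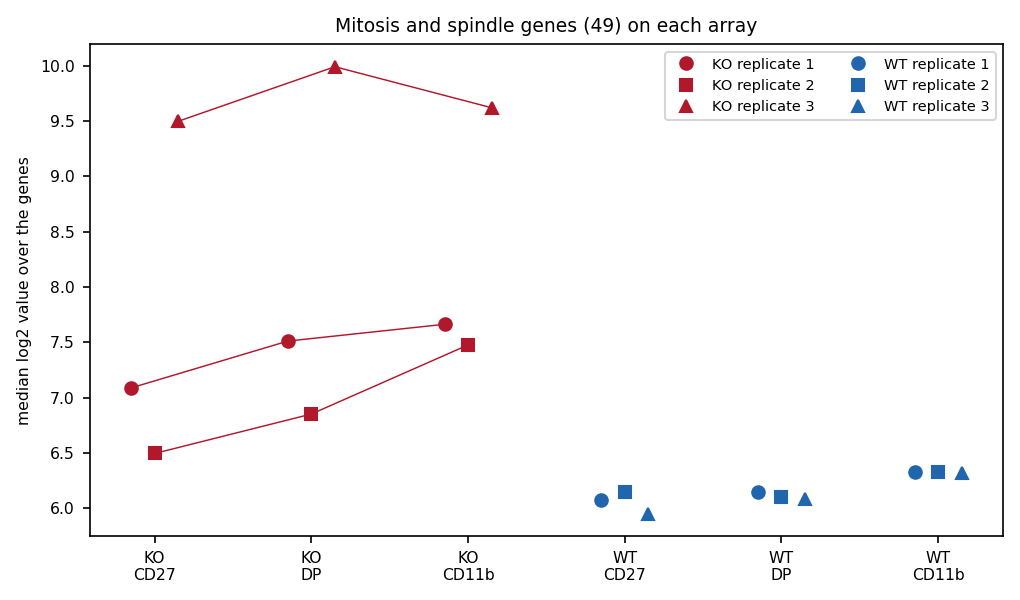
Median log2 value of the 49 mitosis and spindle genes on each of the 18 arrays, KO groups left of WT groups, with lines joining KO arrays of the same replicate number. Each KO line runs upward between CD27 and DP, the arrays of KO replicate 3 lie between 9.50 and 9.99, and WT arrays lie between 5.95 and 6.33.

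The promoters of 3 mitosis genes are printed, because many promoters of this list hold 2 short elements of cell cycle genes. They had the largest differences among the mitosis genes in the RefSeq table used, with a chromosome left out. That table lacks Aurkb. The genes were chosen after their values were seen, and 0 of the 3 passed. Anln, the cytokinesis scaffold anillin, read 7.08, 6.54 and 10.01 on KO DP arrays, against 6.37, 5.71 and 9.41 on KO CD27 arrays (adjusted p = 0.186). Kif11, the spindle motor Eg5, differed by 0.64 (adjusted p = 0.121), and Bub1, a kinase of the spindle checkpoint, by 0.64 (0.103). The cell cycle homology region TTTGAA (CHR) was searched on both strands together with the CCAAT box, bound by NF-Y, over the same 300 bases of GRCm38.p6, and both are in capitals. Anln lies at chr9:22389157-22389456 on the minus strand and has 2 CHR matches downstream of the start site, at bases 21 to 26 and 28 to 33. Kif11 lies at chr19:37376132-37376431 on the plus strand, with CCAAT at -45 to -41 and the CHR at -19 to -14, both read on the opposite strand. Bub1 lies at chr2:127831810-127832109 on the minus strand and has 2 CCAAT matches, at -68 to -64 and -42 to -38.
Anln: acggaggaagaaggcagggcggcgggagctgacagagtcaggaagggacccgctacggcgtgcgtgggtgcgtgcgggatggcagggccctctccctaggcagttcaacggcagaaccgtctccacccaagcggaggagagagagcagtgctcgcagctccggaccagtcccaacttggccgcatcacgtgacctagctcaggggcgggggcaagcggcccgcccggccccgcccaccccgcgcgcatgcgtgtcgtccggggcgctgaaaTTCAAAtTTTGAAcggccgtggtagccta
Kif11: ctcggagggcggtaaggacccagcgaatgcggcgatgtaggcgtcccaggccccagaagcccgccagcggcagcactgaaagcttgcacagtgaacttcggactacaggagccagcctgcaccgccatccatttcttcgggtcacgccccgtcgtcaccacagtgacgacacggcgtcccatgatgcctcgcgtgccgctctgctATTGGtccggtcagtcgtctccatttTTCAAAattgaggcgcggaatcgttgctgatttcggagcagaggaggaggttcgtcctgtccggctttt
Bub1: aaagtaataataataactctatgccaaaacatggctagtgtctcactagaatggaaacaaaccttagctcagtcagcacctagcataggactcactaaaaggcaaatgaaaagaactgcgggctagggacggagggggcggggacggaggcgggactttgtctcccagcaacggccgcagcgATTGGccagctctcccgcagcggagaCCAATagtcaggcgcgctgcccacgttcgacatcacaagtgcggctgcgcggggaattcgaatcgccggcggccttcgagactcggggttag
Of the 49 genes 40 have a promoter in the table. The CHR letters were present in 30 of them (75%), against 18.1% of all 27025 promoters, and CCAAT in 30 (75%), against 37.9%. Both were present in 26 (65%), against 7.12%.

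The same step in WT cells gives the scale of these differences. WT DP against WT CD27 gave 402 calls (1.14%), 176 higher (0.497%) and 226 lower (0.638%), from arrays that the KO step does not share. Of the 402, 386 had the same direction in KO cells, with a median size of 0.31 in KO cells and 0.65 in WT cells. Having been chosen by their WT values, they are expected to be larger there. Of the 31 KO calls 30 had the same direction in WT cells, with medians of 0.78 in KO and 0.63 in WT cells, and here the choice favours KO. The 20 probe sets called in both were 64.5% of the KO calls and 4.98% of the WT calls. Both steps take the spread of a probe set from the same fit. A small spread thus favours a call in both, and the overlap is not independent agreement. Across all probe sets the differences of the 2 genotypes correlated at r of 0.433, a description across probe sets that are not independent.

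**Figure D4:**
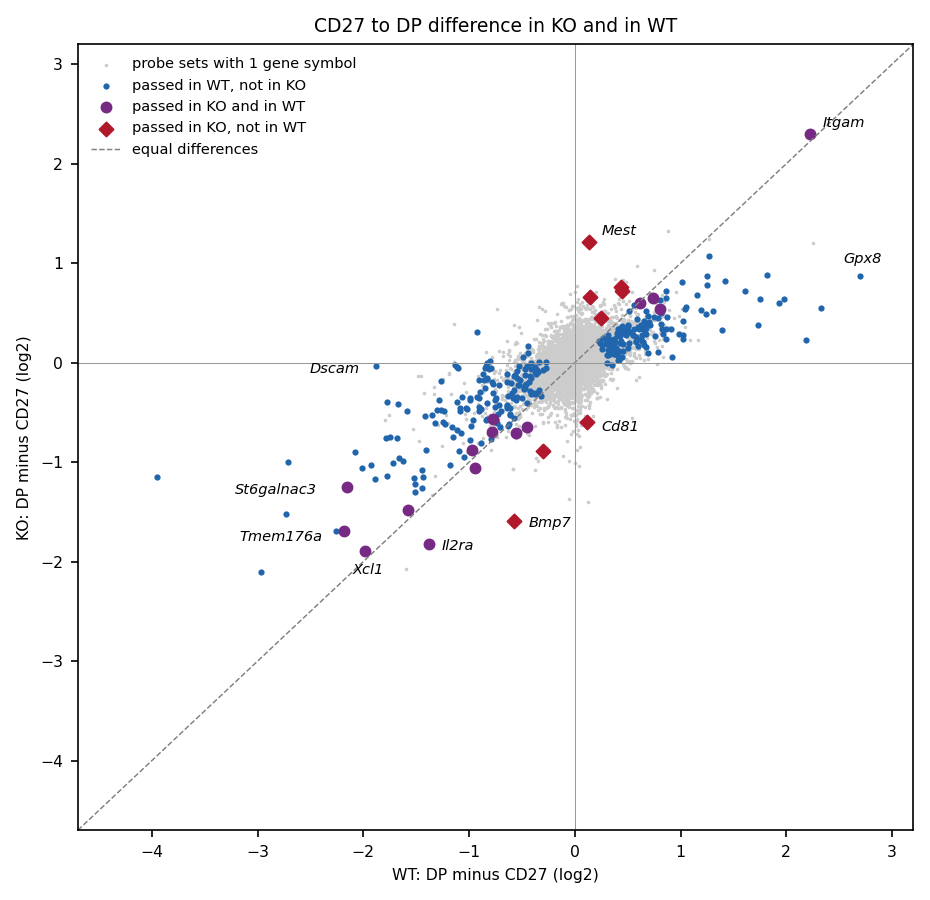
DP minus CD27 difference (log2) in KO, vertical axis, against WT, horizontal axis, for probe sets with 1 gene symbol; purple points passed in both genotypes, red diamonds in KO and not in WT, blue points in WT and not in KO, and the dashed line marks equal differences. Itgam, Xcl1 and Il2ra lie near the dashed line, Dscam lies at -0.04 in KO and -1.88 in WT, and Mest at 1.22 in KO and 0.14 in WT.

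Of the 23 named genes that passed in KO cells 15 also passed in WT cells. Xcl1 differed by -1.89 in KO and -1.99 in WT cells, Tnfrsf25 by -1.06 in KO and -0.95 in WT cells, and Irf8 by 0.54 in KO and 0.80 in WT cells. The 8 that did not pass in WT were Bmp7, Ckb, Cd81, Mest, Nr4a2, Ncald, Aurkb and Endod1. Mest read 7.24 to 8.10 on KO DP arrays and 5.86 to 6.97 on KO CD27 arrays, while it read 5.42 on each WT DP array, against 5.04 to 5.47 on WT CD27 arrays. Cd81 differed by -0.60 in KO cells, and it read 5.80 to 6.07 on WT DP arrays and 5.68 to 5.86 on WT CD27 arrays, a difference of 0.11 (adjusted p = 0.728). The WT values of Mest and Cd81 lay below the medians of those arrays, 6.28 to 6.34. A call in one genotype and not in the other is not a difference between them, and that difference was tested as the KO step minus the WT step.

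No probe set passed for the KO step minus the WT step by limma (0 of 35399, 0%). The lowest adjusted p was 0.136, and 1333 probe sets (3.77%) had an unadjusted p under 0.05. The 95% interval of this difference was -0.99 to -0.43 for Cd81 (adjusted p = 0.537) and 0.58 to 1.58 for Mest (adjusted p = 0.854). For Bmp7 it was -1.65 to -0.38, for Aurkb 0.24 to 0.78 and for Xcl1 -0.47 to 0.66, at adjusted p-values of 0.999 or more. Over the 49 mitosis genes the KO step was above the WT step in 48, with a median of 0.34, and none was called (lowest adjusted p = 0.952). Over all 19938 genes it was above in 10233, with a median of 0.004. The median level of the mitosis genes was only 5.95 to 6.15 on WT CD27 and WT DP arrays. It is not known whether such values lie above background.

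The 10 smallest p-values of this contrast belonged mainly to genes with a large WT difference and a small KO difference. Dscam, a cell adhesion molecule, read 4.90, 4.73 and 4.95 on KO DP arrays and 4.89, 4.87 and 4.93 on KO CD27 arrays. Its WT DP arrays read 5.19, 5.54 and 5.14, against 6.69, 7.54 and 7.27 on WT CD27 arrays. The KO values of Dscam lay far below the array medians of 6.27 to 6.34 at both stages. A fall in KO cells could therefore hardly have been seen. The KO step exceeded the WT step by 1.84 (95% interval 1.32 to 2.36, adjusted p = 0.136). The transcription factor Mef2c differed by 0.31 in KO and -0.92 in WT cells (adjusted p = 0.136). With no block, with the block in both genotypes, with a random block, with 1 probe set per gene and without WT replicate 1, Dscam passed, alone with no block and as 1 of 2 calls otherwise.

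Gpx8, a peroxidase of the endoplasmic reticulum, was in the opposite direction and differed by 0.87 in KO and 2.70 in WT cells (adjusted p = 0.493 for the KO step minus the WT step). Gzma, granzyme A, differed by 0.06 in KO and 0.44 in WT cells (0.611), and Cd226 by -0.76 in KO and -1.79 in WT cells (0.825). Kir3dl1 (-0.02 in KO, -1.13 in WT, 0.537), the amidating enzyme Pam (0.17 in KO, -0.44 in WT, 0.599) and 1 of 2 probe sets of Tnfaip8 (-0.48 in KO, -1.30 in WT, 0.340) were also among the 10, as was Cd81.

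The medians of the NK maturation lists lay nearer 0 in KO than in WT cells. Immature NK genes had a median of -0.45 in KO and -1.18 in WT cells, where 14 fell and 1 rose. ILC1 markers had -0.71 in KO and -1.41 in WT cells, where 13 fell. Mature NK genes had 0.22 in KO and 0.58 in WT cells, where 10 rose and 1 fell, granzyme B (Gzmb, 0.37 in KO, 1.73 in WT) and perforin (Prf1, 0.39 in KO, 0.68 in WT) among them. Of all 19938 genes, 0.652% rose and 0.808% fell in WT cells. The list members were chosen with earlier results of these data known, so the choice itself may have set these medians apart. The difference of these medians between genotypes was not tested as a list, and 0 members of these lists passed for the KO step minus the WT step by limma.

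The next KO step, CD11b against DP, shares the KO DP arrays with the step described here, so its values are given only side by side. It had 432 calls (1.22%), and 220 without the KO CD11b array of replicate 3, of which 187 were among the 432. Xcl1 averaged 6.88 ± 0.51 in KO CD11b cells and 8.69 ± 0.32 in KO DP cells (SD, n = 3 each), and its difference was -1.81 (adjusted p = 0.000592), after -1.89 in the step before. Irf8 differed by 0.79 (adjusted p = 0.000516) after 0.54, Mest by 0.91 (0.0174) after 1.22, and Bmp7 by -0.99 (0.0389) after -1.59. Tmem176a (-0.27, 0.767 after -1.69), St6galnac3 (0.39, 0.244 after -1.25), Ckb (0.04, 0.954 after -0.89) and Nr4a2 (0.02, 0.975 after 0.76) did not pass in the later step. Itgam differed by 0.36 (0.697) after 2.30 and Cd27 by -2.04 (5.72e-05) after -0.10, in the order of the gates. Without the KO CD11b array of replicate 3 Mest differed by 0.67 and did not pass (adjusted p = 0.0790). Xcl1 (-1.65, 0.00498), Irf8 (0.77, 0.00498), Bmp7 (-1.18, 0.0467) and Cd27 (-1.88, 0.000447) passed. Tmem176a then differed by -0.57 (adjusted p = 0.510), St6galnac3 by 0.33 (0.580), Ckb by -0.05 (0.992) and Nr4a2 by 0.13 (0.872).

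**Figure D5:**
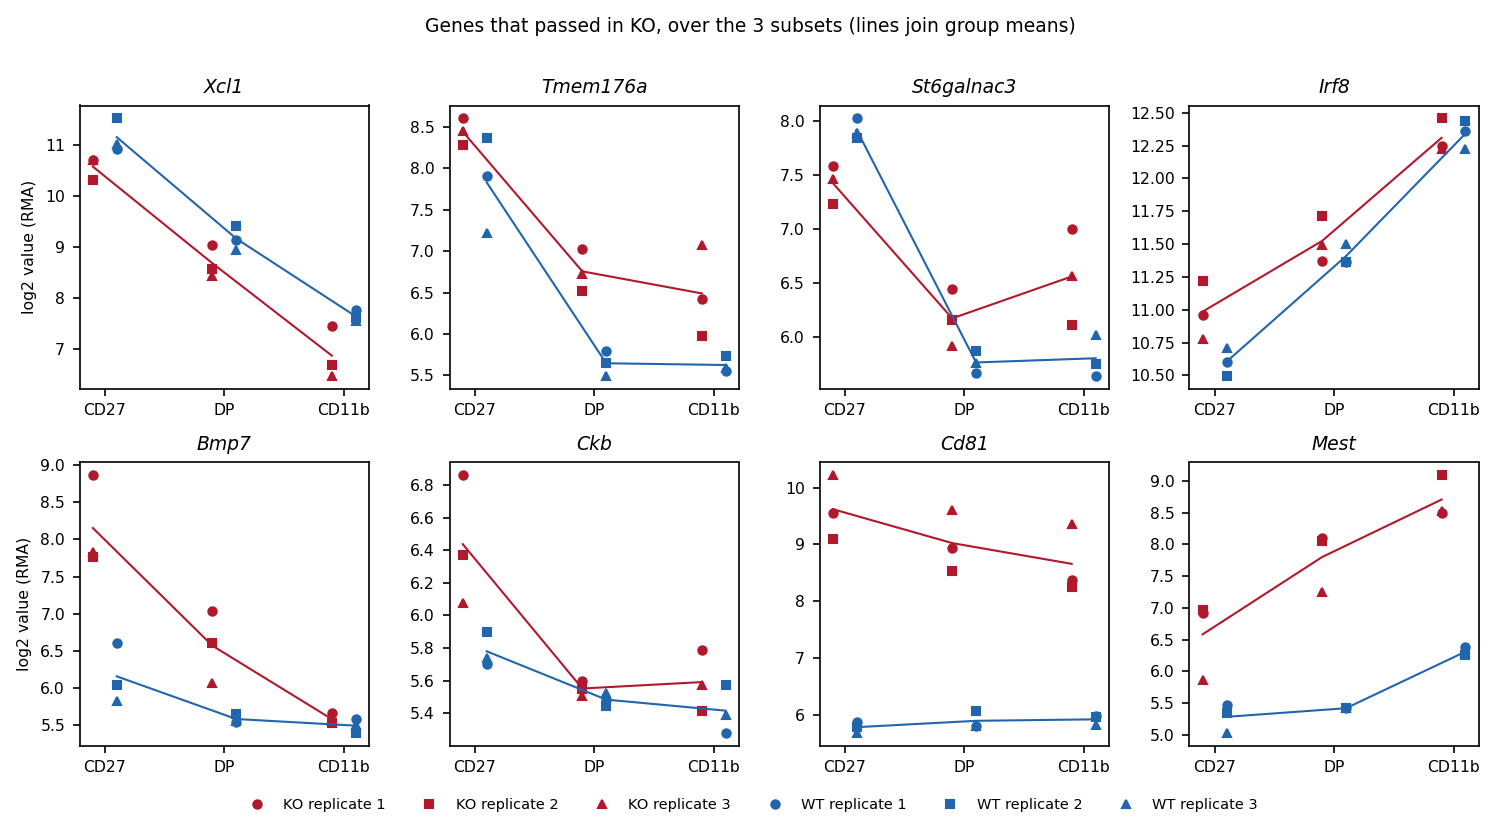
Log2 values of 8 genes that passed in KO DP against KO CD27 cells, over CD27, DP and CD11b cells, with KO arrays in red, WT arrays in blue and lines through group means. Xcl1, Tmem176a, St6galnac3 and Irf8 run the same way in both genotypes, while Cd81 lies at 8.24 or more on the KO arrays and between 5.68 and 6.07 on the WT arrays.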

How the data were processed

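RNA of sorted splenic NK cells was extracted with the RNeasy micro kit and labelled with the Affymetrix WT-cDNA kit, per the labels' protocols. The authors deposited log2 values, 1 column per array; RMA and Partek are the tools named in the submitters' processing notes, without versions. The values run from 3.91 to 14.96 with nearly equal array medians, which is how their scale was recognised. No column of the table was left unused. Of the 35399 probe sets 21789 have 1 gene symbol in the platform annotation, 1621 have several and 11989 are not listed; probe sets without a single symbol stayed in all tests and counts and are given no name.

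With limma 3.58.1 in R 4.3.3 (statmod 1.5.0), a model of 6 group means was fitted to the 18 arrays, with the KO replicate number as a fixed block, 10 residual and 2.36 prior degrees of freedom. Tests were moderated by eBayes, two-sided and adjusted by Benjamini-Hochberg over all probe sets, with a threshold of 0.05, and intervals are at 95%. To check the pairing, the deviations of DP and CD27 arrays from their group means were correlated. Same-numbered KO arrays gave r of 0.505, 0.505 and 0.642, against -0.610 to 0.270 for other numbers. Same-numbered WT arrays gave 0.440, 0.139 and -0.0094, against -0.400 to 0.275 for other numbers. Deviations from a group mean are not independent, so same and other numbers tend to opposite signs. The block covers KO alone, and counts with the block in both genotypes are given below. The differences of the KO pairs correlated with one another at 0.471, 0.264 and 0.220.

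Each of 19938 genes was taken by its probe set of highest mean (999 have several). The 27 gene lists hold 588 genes, of which 544 have a probe set. The members, lists and tests were chosen with earlier results of these data known. The rule for named genes took the gates and the targeted gene, every called gene with 1 symbol that moved the same way in all 3 pairs (up to 15 a direction), the 10 largest uncalled differences in each direction, 1 to 4 members a list and the 10 smallest p-values of the KO step minus the WT step, 1 of which is not reported here. On simulated data with 200 changed genes among the 35399 probe sets, this fit recovered 72.5% of 1.5-fold, 90.5% of 2-fold and 99% of 4-fold changes in KO DP against KO CD27, with 9, 12 and 9 other calls. The simulated noise was normal, independent between probe sets and arrays, and of equal spread in all groups. No other probe set changed in that step. The shares check the code and do not give the power on the real arrays, where Il7r at -2.10 did not pass. Promoters are from the RefSeq table of GRCm38.p6, by symbol, taking the first one listed for a gene. Alternatives covered the block, the arrays in the fit, normalization, filters, weights, a minimum fold and leaving out each replicate.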

Additional observations from a re-analysis of the deposited data

How the results depend on the processing

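The KO replicate block decides much of the count. KO DP against KO CD27 gave 31 calls (11 higher, 20 lower), against 7 (2 higher, 5 lower) with no replicate block and 95 (35 and 60, all 31 included) with the block in both genotypes. With the 6 compared arrays alone and the block the count was 10 (0 higher, 10 lower), and 1 of them, Tmem176a, was among the 31. The 9 KO arrays alone gave 38 calls, of which 6 were among the 31. With 1 probe set per gene there were 62 (30 and 32), with a minimum fold of 1.5 there were 0 (113 at an unadjusted p under 0.05 by limma), and after cyclic loess 7 of 26 calls were higher. Leaving out 1 KO or WT replicate, or the KO CD11b array of replicate 3, gave 0 to 55 calls, 0 to 21 of them higher and 0 to 39 lower. The other alternatives (random block, median centring, the filter at the median mean, intensity trend and array weights) gave 27 to 33. WT DP against WT CD27 gave 402 calls, against 197 with no replicate block, 694 with the block in both genotypes, 168 from the 12 arrays of both steps, 12 with the minimum fold and 76 to 378 with 1 replicate or that array left out. The KO step minus the WT step gave 0 calls, against 1 with no replicate block and 2 each with the block in both genotypes, with a random block and with 1 probe set per gene, and 0 to 2 with 1 replicate left out. The mitosis median was 0.41, and 0.34 to 0.41 with 1 replicate left out. No named call changed direction under the alternatives run. The causes of these changes were not tested. With 3 pairs, 2.36 prior degrees of freedom and no detection call, small differences and low values are the least certain.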

Other observations

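Of 26 immediate early genes, which respond within minutes to stimulation, Nr4a2 alone rose and 0 fell in KO DP cells, and the median difference was 0.15, against 0.03 over all genes. Of these 16 (61.5%) were higher in all 3 pairs, against 23.6% of all genes, and 1 (3.85%) was lower, against 10.6%; the list was not tested. Egr1 differed by 0.58 (adjusted p = 0.123) and Nr4a1 by 0.81 (0.438), with neither passing; both were chosen after their values were seen. The WT median of this list was 0.14. Among 40 NK transcription factors Irf8 alone rose, 0 fell and the median was 0.02. Tbx21, the regulator T-bet, read 12.34, 12.39 and 12.26 on KO DP arrays, against 12.24, 12.30 and 12.01 on KO CD27 arrays, and Eomes 12.47, 12.47 and 12.31 on KO DP arrays, against 12.14, 12.09 and 12.19 on KO CD27 arrays, with adjusted p-values of 0.641 and 0.298. They were named for their role, outside the rule.

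Of 25 cytotoxic granule genes 0 passed in KO cells by limma, with a median of 0.11, against 0.12 in WT cells, where 9 rose and 1 fell. Of all genes 0.652% rose and 0.808% fell in WT cells. The cystatin Cst7 (0.42, adjusted p = 0.449) and granzyme M, Gzmm (-0.41, 0.603), differed most among the KO members. Granzyme A read 13.31 to 13.48 on KO DP arrays and 13.28 to 13.46 on KO CD27 arrays. Of 19 Ly49 and lectin receptors 0 passed, with a median of 0.08, and the activating receptor Klra8 (Ly49H) differed by 0.62. Of 22 integrin and adhesion genes Itgam, whose protein was the gate of the sort, rose and Cd81 fell, with a median of 0.10. Over all genes 0.0451% rose and 0.0702% fell in KO DP cells, with a median of 0.03. Of 17 chemokine and egress receptors 0 passed, with a median of -0.02. Medians were 0.05 for glycolysis, 0.08 for cholesterol synthesis, -0.05 for the type I interferon response and -0.06 for Myc targets, with 0 calls in each. They were 0.02 for the TGF-beta pathway, of which the co-receptor Tgfbr3 differed by 0.47 (adjusted p = 0.413). For the Notch pathway the target Nrarp differed by 0.48 (adjusted p = 0.510).

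The 3 KO pairs differed in how far DP and CD27 arrays lay apart. The SD of the difference over all probe sets was 0.241 in replicate 1, 0.340 in replicate 2 and 0.294 in replicate 3, and 221, 682 and 421 probe sets differed by more than 1 on the log2 scale.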
